A study of Mus musculus with 31 samples.

Results

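The comparison described here is the addition of phenformin to poly I:C in the MT mouse breast tumour model. It uses 8 of the 31 libraries of the series, chosen by title: 4 from MT tumours given both agents, called the combination, and 4 from MT tumours given poly I:C and the phosphate-buffered saline vehicle. Phenformin, a biguanide, blocks complex I, the enzyme by which electrons from NADH enter the mitochondrial respiratory chain. Poly I:C is a man-made mimic of viral RNA that is sensed by Toll-like receptor 3 (TLR3) and by cytosolic RNA sensors.

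Messenger RNA of orthotopic tumours grown in syngeneic mice was sequenced with strand-specific libraries, and reads were counted per gene. The genotype tag of all 8 libraries reads WT, and no dose, time, sex or age is given in the labels used here. The labels do not say that replicates are separate animals, so each p-value measures only the spread between these libraries. The design text pairs MT with FVB mice and 4T1 with BALB/c mice. Libraries titled MT carry tags for strain BALBc and cell line 4T1-537, so titles and tags name opposite models. Groups here follow the titles. If the tags are right, the models are swapped in every statement that sets MT against 4T1.

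The series asks how complex I inhibition combined with TLR activation acts on the tumour microenvironment and its neutrophils. Tumours hold macrophages, which engulf dying cells and carry endosomal Toll-like receptors, and neutrophils, short-lived granulocytes whose granule proteins are made while the cell matures. Phenformin acts on the respiratory chain of any cell that takes it up. Both agents were present in the combination tumours, and by the labels the poly I:C tumours differ from them by phenformin alone.

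Total counts ran from 15132000 to 16724747 per library. Values below are CPM, the counts of a gene per 1000000 counts of its library, unless a fold change is named. The Schwann and neural crest factor Sox10 was chosen after its values were seen, because MT control and MT phenformin libraries differ in it widely. It measured 0.699, 2.59, 3.19 and 1.78 CPM in the combination libraries and 0.853, 2.46, 1.64 and 1.495 CPM in the poly I:C libraries, so both groups were low in it. It measured 188, 185, 34.4 and 2.82 CPM in MT phenformin libraries and 168, 211, 171 and 1.32 CPM in MT control libraries.

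The 8 libraries differed most in lymphoid RNA, and this variation crossed the treatment groups. The first principal component of log2 CPM held 68.4% of the variance, and the genes with the largest weights on it were those of B cells and lymphoid tissue. Igkc, the kappa light chain constant region, measured 9108, 129, 29.1 and 2209 CPM in combination replicates 1 to 4 and 33.1, 26.5, 2805 and 250 CPM in poly I:C replicates 1 to 4. Glycam1, a ligand of lymph node high endothelium, measured 1349, 1.10, 0.602 and 296 CPM in the combination libraries and 0.197, 3.02, 440 and 57.4 CPM in the poly I:C libraries. Combination replicates 1 and 4 and poly I:C replicate 3 were the 3 libraries with Igkc above 1000 CPM.

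All 16 B and plasma cell markers were detected, with summed levels of 26790, 908, 580 and 7038 CPM in the combination libraries and 614, 465, 8759 and 1318 CPM in the poly I:C libraries. The 20 T cell markers summed to 2474, 553, 459 and 1437 CPM in the combination libraries and 425, 757, 1656 and 646 CPM in the poly I:C libraries. The basal keratin Krt5 ran the other way, at 344, 2223, 1901 and 1774 CPM in the combination libraries and 2535, 1609, 1419 and 2202 CPM in the poly I:C libraries. Combination replicate 1 therefore had the most lymphocyte RNA and the least keratin RNA of the 8 libraries, and list medians below are given with and without it. In bulk tissue, fewer cells of a type and less RNA per cell cannot be told apart.

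**Figure D1:**
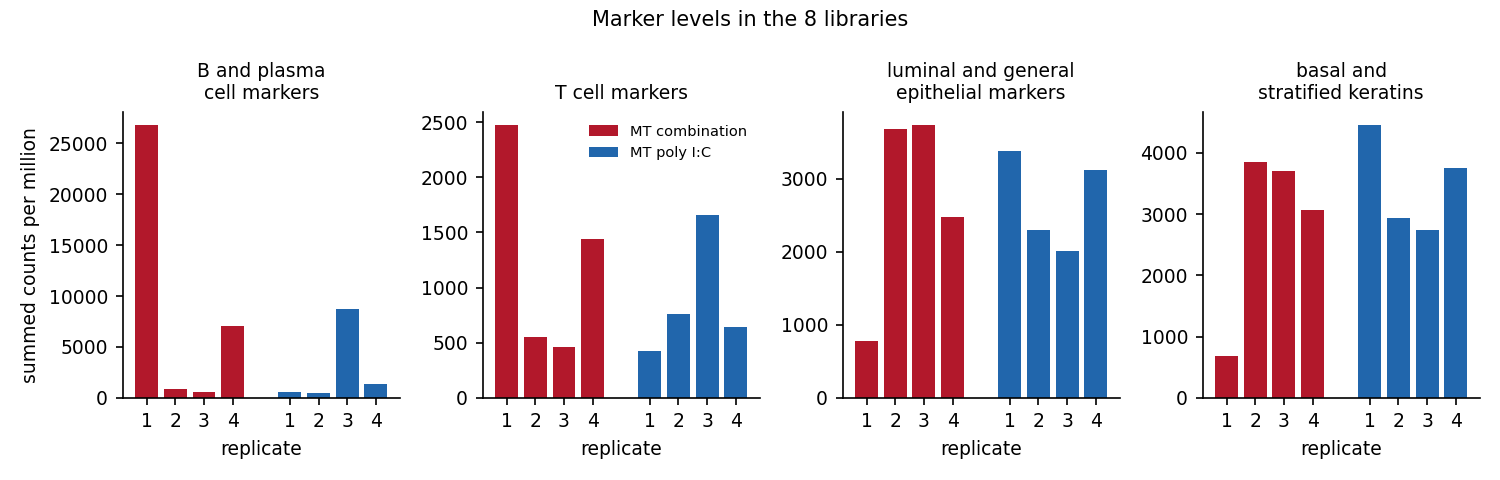
Summed CPM of 4 marker lists in each of the 4 MT combination (red) and 4 MT poly I:C (blue) libraries, with replicate numbers on the horizontal axes and a separate vertical scale in each panel. B and plasma cell markers reached 26790 CPM in combination replicate 1 and 8759 CPM in poly I:C replicate 3, and keratins were lowest in combination replicate 1.

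No gene was called in the combination against poly I:C. Of 17170 genes tested, edgeR's quasi-likelihood test called 0 (0%) with a threshold of 0.05 on the Benjamini-Hochberg adjusted p, and the smallest adjusted p was 0.552. At an unadjusted p under 0.05 it marked 1506 genes (8.77%), of which 857 had higher values in the combination (4.99%) and 649 lower values (3.78%). DESeq2 called 118 genes (0.687%), 75 higher and 43 lower in the combination, and limma voom with library weights called 0, with 4165 genes (24.3%) at an unadjusted p under 0.05.

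The count of called genes thus depends on the tool, so the genes below are described by their values and intervals. The median log2 fold change over all genes was 0.01, and the median standard error (SE) was 0.21. For 540 genes (3.15%) all 4 combination libraries lay above all 4 poly I:C libraries, and for 500 genes (2.91%) all 4 lay below. Under the naming rule given below, 16 genes of either direction were taken for the smallest p among genes whose groups did not overlap. All were called by DESeq2 and none by an edgeR fit of these 8 libraries. For these 16 genes the lack of overlap was fixed by the rule, and the DESeq2 p-values come from the same counts.

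Macrophage genes had lower values in the combination tumours. Of 21 macrophage markers tested, 0 had a log2 fold change above 0 and 21 had one below it, against 8954 of 17170 genes (52.1%) above 0. Their median log2 fold change was -0.45, against 0.01 over all genes. None was called by edgeR, and 4 had an unadjusted p under 0.05, all lower, where 3.78% of all genes were lower at that threshold.

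Mertk, a receptor tyrosine kinase with which macrophages bind and engulf apoptotic cells, was the marker with the smallest p (ENSMUSG00000014361, GRCm38 chromosome 2, 128698956 to 128802894, plus strand). It had 20.5, 22.3, 25.5 and 27.6 CPM in the combination libraries, against 35.9, 62.7, 44.0 and 43.7 CPM in the poly I:C libraries. The groups did not overlap, which the naming rule required, and every combination library lay within a narrow range. Its log2 fold change was -0.94 ± 0.18 (SE, n = 4 each; 95% interval -1.36 to -0.52), with an adjusted p of 0.552 in edgeR's quasi-likelihood test and 0.00458 in DESeq2.

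Tlr8 encodes an endosomal Toll-like receptor for single-stranded RNA fragments in human myeloid cells (ENSMUSG00000040522, GRCm38 chromosome X, 167242696 to 167264329, minus strand). It had 3.50, 6.87, 9.51 and 8.39 CPM in the combination libraries, against 15.8, 29.3, 20.4 and 19.3 CPM in the poly I:C libraries. Again the groups did not overlap, as the naming rule required. The log2 fold change was -1.56 ± 0.32 (SE, n = 4 each; 95% interval -2.29 to -0.83), with an adjusted p of 0.552 in edgeR's quasi-likelihood test and 0.00458 in DESeq2. The neighbouring Tlr7, chosen after its values were seen, had overlapping groups, at 18.1, 6.03, 7.71 and 12.4 CPM in the combination and 13.2, 23.6, 20.4 and 13.1 CPM in poly I:C libraries.

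For both genes the level in the poly I:C tumours was the highest of the 4 MT groups. Mertk averaged 18.2 ± 8.05 CPM in MT phenformin libraries and 10.8 ± 5.23 CPM in MT control libraries (SD, n = 4 each), and Tlr8 averaged 4.84 ± 2.39 and 3.33 ± 1.72 CPM in the same groups. These levels were not tested against the combination, since most MT control libraries differ from it in Sox10 as well.

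Other macrophage genes had lower values with wider spread. Mrc1, the mannose receptor, had 50.3, 89.4, 111 and 150 CPM in the combination and 270, 233, 151 and 149 CPM in poly I:C libraries, overlapping by combination replicate 4 (log2 fold change -0.99 ± 0.34, SE). Csf1r, the receptor for the macrophage growth factor, had 123, 138, 136 and 186 CPM in the combination and 161, 258, 220 and 175 CPM in poly I:C libraries (log2 fold change -0.46 ± 0.18, SE). Mrc1 and Csf1r were chosen after their values were seen.

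A pair of abundant macrophage genes overlapped widely between the groups. Lyz2, lysozyme, had 2009, 797, 518 and 1876 CPM in the combination and 720, 1927, 1597 and 1068 CPM in poly I:C libraries, a log2 fold change of -0.0043 within a 95% interval of -1.10 to 1.09. Apoe, an apolipoprotein made by lipid-handling macrophages, had 1046, 606, 609 and 1368 CPM in the combination and 1019, 1211, 1235 and 858 CPM in poly I:C libraries (95% interval -0.89 to 0.42). The summed level of the 22 markers also overlapped, at 3944, 3389, 2973 and 5890 CPM in the combination and 4717, 5722, 4815 and 4443 CPM in poly I:C libraries. Lyz2 and Apoe were chosen after their values were seen.

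The lower macrophage median did not rest on combination replicate 1. Without that library it was -0.32, with 3 of 21 members at an unadjusted p under 0.05, all lower, where 11.5% of all genes had one. Without the 3 libraries with Igkc above 1000 CPM it was -0.71, with 17 of 21 such members, all lower, where 11.7% of all genes had one and 1083 of 17360 were lower. That fit kept 2 combination and 3 poly I:C libraries. It left out combination replicate 4, which had the highest macrophage sum, 5890 CPM. In it 9 of 19 luminal and general epithelial markers were higher at that threshold and 0 lower. The count of such macrophage markers thus depended on the libraries used. It was 2 without poly I:C replicate 1 (9.02% of all genes), 2 without poly I:C replicate 2 (4.06%) and 12 without combination replicate 4 (5.61%). In each of these fits edgeR called 0 members. Over all alternatives the macrophage median ranged from -0.72 to -0.32.

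**Figure D2:**
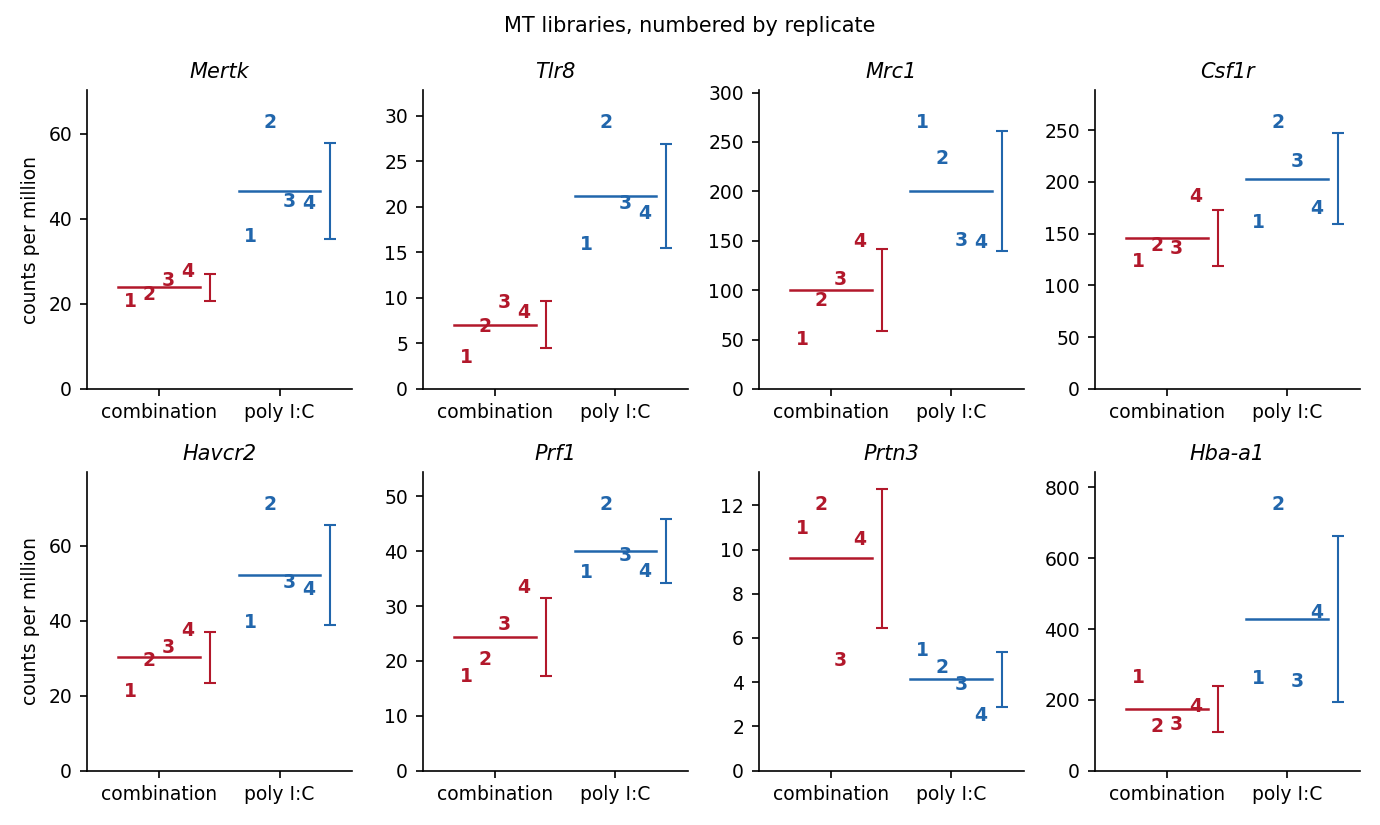
CPM of 8 genes in the MT combination (red) and MT poly I:C (blue) libraries, each library drawn as its replicate number; horizontal lines are group means and bars are 1 SD (n = 4). Mertk, Tlr8, Havcr2 and Prf1 did not overlap between the groups, while Mrc1, Csf1r, Prtn3 and Hba-a1 did.

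Immune checkpoint and cytotoxic genes had mixed directions, and 0 of either list were called by edgeR. Of 13 checkpoint genes 4 had a log2 fold change above 0, the highest being 0.86 for Btla, an inhibitory receptor of lymphocytes. An unadjusted p under 0.05 was found for 2, both lower, where 3.78% of all genes were lower at that threshold. The checkpoint median was -0.11, -0.27 without combination replicate 1 and 0.03 without poly I:C replicate 2. Of 17 cytotoxic and natural killer genes 6 lay above 0, the highest being 0.76 for Ncr1, an activating receptor of natural killer cells, and 1 had an unadjusted p under 0.05, with a lower value. Btla and Ncr1 were chosen after their values were seen. Havcr2, which encodes the inhibitory receptor TIM-3, had 21.2, 29.5, 32.7 and 37.4 CPM in the combination libraries, against 39.5, 71.1, 50.2 and 48.4 CPM in the poly I:C libraries (log2 fold change -0.77 ± 0.22, SE). Prf1, the pore-forming perforin of cytotoxic cells, had 17.2, 20.4, 26.7 and 33.4 CPM in the combination, against 36.1, 48.6, 39.3 and 36.4 CPM in poly I:C libraries (log2 fold change -0.70 ± 0.21, SE). Neither gene overlapped between the groups, and neither was called by edgeR, with an adjusted p of 0.552 for each. Cd274, the checkpoint ligand PD-L1, had 39.5, 67.3, 89.9 and 85.4 CPM in the combination and 82.3, 149, 119 and 98.7 CPM in poly I:C libraries, and its groups overlapped. Havcr2, Prf1 and Cd274 were chosen after their values were seen.

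Of 20 T cell markers 20 had a log2 fold change above 0, with a median of 0.59. That median was 0.01 without combination replicate 1 and -0.27 without the 3 libraries with Igkc above 1000 CPM. For the 17 cytotoxic and natural killer genes the medians were -0.38 with all libraries, -0.31 without combination replicate 1 and -0.48 without those 3 libraries. The cytotoxic median was -0.02 without poly I:C replicate 1, -0.15 without poly I:C replicate 2 and 0.13 with the replicate number as a block, so its size and sign also depended on the libraries and the fit.

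Neutrophils are the cell type named in the title of the series, and their genes are given here by the stage at which they are made. Ly6g, the defining surface marker of mouse neutrophils, was too low to be tested, at 0.318, 0.583, 0.120 and 0.397 CPM in the combination libraries and 0.263, 0.378, 0.252 and 0 CPM in the poly I:C libraries. Of the 27 neutrophil markers, Ly6g and Cxcr1 stayed under 1 CPM in all 8 libraries. Summed, the list came to 1490, 691, 327 and 671 CPM in the combination and 495, 672, 545 and 289 CPM in poly I:C libraries, with the highest value in combination replicate 1. Its median log2 fold change was 0.57, and 0.28 without that library.

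Granule genes of immature neutrophils had the highest median of the neutrophil lists. Of 10 immature granule genes tested 9 had a log2 fold change above 0 (median 0.76, and 0.68 without combination replicate 1). Of these, 3 had an unadjusted p under 0.05, all higher, against 4.99% of all genes in that direction, and 0 were called. The median was 0.50 without combination replicate 2 and 0.44 without poly I:C replicate 4. Summed, the 11 listed genes came to 428, 1490, 973 and 672 CPM in the combination and 1083, 799.5, 433 and 776 CPM in poly I:C libraries, so the sums overlapped and combination replicate 1 was the lowest of the 8. The sums were 5753, 6051, 6362 and 800 CPM in MT control libraries and 5572, 6042, 2017 and 493 CPM in MT phenformin libraries. In each of those groups replicate 4 had the lowest sum and the least Sox10. Which cells made this RNA was not tested. Prtn3, proteinase 3, had 10.9, 12.1, 4.996 and 10.4 CPM in the combination, against 5.45, 4.66, 3.91 and 2.51 CPM in poly I:C libraries (log2 fold change 1.23 ± 0.33, SE). Mpo, myeloperoxidase, had 28.1, 27.9, 9.33 and 19.0 CPM in the combination, against 9.98, 14.6, 8.45 and 4.19 CPM in poly I:C libraries (log2 fold change 1.198 ± 0.44, SE). In both genes 3 of the 4 combination libraries exceeded every poly I:C library, and combination replicate 3 did not. Prtn3 and Mpo were chosen after their values were seen.

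Among later neutrophil genes the directions were mixed. Pglyrp1, a granule peptidoglycan-binding protein, had 17.4, 24.5, 17.1 and 17.5 CPM in the combination, against 15.7, 13.03, 12.5 and 10.5 CPM in poly I:C libraries, with no overlap (log2 fold change 0.58 ± 0.18, SE). Pglyrp1 had 155, 246, 163 and 11.8 CPM in MT control libraries and 120, 188, 42.5 and 16.4 CPM in MT phenformin libraries. Replicate 4 was the lowest of each of those groups, as it was for Sox10. Mrgpra2b, a receptor of mouse neutrophils, had 1.398, 2.33, 1.14 and 1.39 CPM in the combination, against 0.919, 1.07, 0.630 and 0.359 CPM in poly I:C libraries (log2 fold change 1.08 ± 0.38, SE). Csf3r, the receptor for granulocyte colony-stimulating factor, had 15, 17.8, 13.7 and 19.96 CPM in the combination and 18.3, 33.2, 22.6 and 19.8 CPM in poly I:C libraries (log2 fold change -0.48 ± 0.21, SE). Itgam, the integrin CD11b of neutrophils and macrophages, had 22.1, 46.8, 40.3 and 53.9 CPM in the combination and 66.3, 91.3, 67.4 and 53.3 CPM in poly I:C libraries (log2 fold change -0.75 ± 0.27, SE). None of these 4 genes was called by edgeR, each with an adjusted p between 0.552 and 0.567, or by DESeq2.

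The response to poly I:C itself, read from interferon-stimulated and NF-kB genes, showed no called gene. Of 31 interferon-stimulated genes 7 had a log2 fold change above 0 and none had an unadjusted p under 0.05. The median was -0.07 with all 8 libraries and 0.17 without combination replicate 1, so its sign rested on that library. Without it 3 of 31 members were higher and 0 lower at an unadjusted p under 0.05, where 996 of 17338 genes were higher. Without the 3 libraries with Igkc above 1000 CPM 5 were higher and 0 lower, where 946 of 17360 genes were higher. In these fits edgeR called 0 members. The 2 members with the smallest p were Trim30a, at 106, 153, 187 and 150 CPM in the combination and 159, 187, 179 and 187 CPM in poly I:C libraries, and Herc6, at 44.9, 91.8, 116 and 77.1 CPM in the combination and 104, 111, 90.6 and 107 CPM in poly I:C libraries. In both genes combination replicate 1 was the lowest of the 8.

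Intervals for single interferon and inflammatory genes were wide. Isg15, a ubiquitin-like protein induced by type I interferon, had 45.8, 186, 174 and 155 CPM in the combination and 150, 102, 93.8 and 137 CPM in poly I:C libraries (95% interval of the log2 fold change -0.68 to 1.13). Cxcl10, a chemokine that recruits T cells, had 133, 361, 779 and 602 CPM in the combination and 462, 506, 600 and 478 CPM in poly I:C libraries (95% interval -1.14 to 0.92). Tlr3, the receptor for poly I:C, had 25.4, 99.6, 119 and 61.3 CPM in the combination and 86.7, 99.5, 75.1 and 107 CPM in poly I:C libraries (95% interval -1.19 to 0.68). A difference within these bounds was not detectable at this spread. Isg15, Cxcl10 and Tlr3 were chosen after their values were seen.

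Of 28 NF-kB targets and inflammatory cytokines 15 had a log2 fold change above 0, with a median of 0.01, and of -0.0036 without combination replicate 1. Nfkbia, the inhibitor that NF-kB itself induces, had 207, 145, 174 and 236 CPM in the combination and 142, 118, 188 and 109 CPM in poly I:C libraries (log2 fold change 0.48 ± 0.21, SE). Nos2, the inducible nitric oxide synthase, had 6.29, 44.5, 37.3 and 33.2 CPM in the combination and 56.1, 80.1, 47.4 and 44.3 CPM in poly I:C libraries (log2 fold change -0.90 ± 0.50, SE). Nos2 overlapped by a small margin, with combination replicate 2 just above poly I:C replicate 4, and neither gene was called by edgeR or DESeq2.

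Genes for the respiratory chain, on which phenformin acts, had slightly higher values in the combination tumours. Of 36 nuclear genes for complex I subunits 34 had a log2 fold change above 0, with a median of 0.29, and of 0.23 without combination replicate 1. Of these, 16 had an unadjusted p under 0.05, all higher, against 4.99% of all genes in that direction. Between the groups 8 did not overlap, all higher, where 3.15% of all genes did not overlap in that direction. For complexes II to V 38 of 39 genes lay above 0, with a median of 0.26, and of 0.23 without that library. By edgeR 0 genes of either list were called, and by DESeq2 2 of each, where it called 0.687% of all genes.

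Ndufs7, a core iron-sulphur subunit of complex I, had 36.9, 38.8, 30.9 and 44.2 CPM in the combination libraries, against 24.5, 25.2, 28.2 and 27.6 CPM in the poly I:C libraries (ENSMUSG00000020153, GRCm38 chromosome 10, 80249121 to 80256794, plus strand). Its log2 fold change was 0.53 ± 0.13 (SE, n = 4 each; 95% interval 0.25 to 0.82), with an adjusted p of 0.552 in edgeR's quasi-likelihood test and 0.0235 in DESeq2. Ndufb7, an accessory subunit of the membrane arm, had 78.6, 73.8, 65.1 and 84.6 CPM in the combination, against 58.9, 59.5, 54.7 and 55.9 CPM in poly I:C libraries (log2 fold change 0.42 ± 0.10, SE). The groups of both genes did not overlap, and combination replicate 3 was the lowest and replicate 4 the highest of its group in each.

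Promoters of 3 complex I genes are shown because their transcripts were among those with higher values (unadjusted p under 0.05) and their windows hold a binding motif of NRF1, a transcription factor known to act on many nuclear genes of the respiratory chain. Each run is the 250 bases before a transcript start, 5' to 3' on the gene's strand, from RefSeq (GRCm38.p6), with the motif, GCGCA followed by any base and then GCGC, read on both strands, in capitals. They lie at chr17:56717512-56717761 on the plus strand for Ndufa11, chr6:24527691-24527940 on the minus strand for Ndufa5 and chr2:36049339-36049588 on the minus strand for Ndufa8.
Ndufa11: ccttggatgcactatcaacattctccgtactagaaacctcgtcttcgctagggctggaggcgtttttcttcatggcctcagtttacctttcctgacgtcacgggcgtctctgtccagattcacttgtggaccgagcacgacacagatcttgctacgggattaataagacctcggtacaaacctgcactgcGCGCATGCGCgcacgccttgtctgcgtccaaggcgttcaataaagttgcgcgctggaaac
Ndufa5: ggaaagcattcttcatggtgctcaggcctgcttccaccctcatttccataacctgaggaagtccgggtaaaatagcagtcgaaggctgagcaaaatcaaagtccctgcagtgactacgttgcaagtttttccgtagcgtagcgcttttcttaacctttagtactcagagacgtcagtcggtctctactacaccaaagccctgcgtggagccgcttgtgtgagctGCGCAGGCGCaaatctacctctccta
Ndufa8: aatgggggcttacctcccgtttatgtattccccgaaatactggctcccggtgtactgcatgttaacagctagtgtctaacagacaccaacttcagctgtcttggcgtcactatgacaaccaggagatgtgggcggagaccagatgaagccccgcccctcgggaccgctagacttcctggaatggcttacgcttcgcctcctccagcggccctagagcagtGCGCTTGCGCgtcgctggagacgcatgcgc
The matches begin 60, 26 and 30 bases before the start, in the order shown. Ndufa11, an assembly and membrane-arm subunit, had 40.6, 40.6, 34.97 and 46.1 CPM in the combination, against 33.9, 29.8, 31.3 and 30.97 CPM in poly I:C libraries, with no overlap. Ndufa5 had 51.4, 61.2, 56.7 and 66.8 CPM in the combination and 52.3, 45.8, 42.8 and 47.2 CPM in poly I:C libraries, and Ndufa8 had 85.1, 104, 92.5 and 109 CPM in the combination and 86.7, 73.6, 79.0 and 83.4 CPM in poly I:C libraries. In the last 2 genes only combination replicate 1 lay below a poly I:C library.

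A RefSeq window was found for 32 of the 36 complex I genes, and 6 of them held the motif on either strand (18.8%). It was found in 6 of 30 windows of complexes II to V (20%), in 1 of 17 ribosomal protein windows (5.88%), in 0 of 16 macrophage marker windows (0%) and in 1144 of 27025 genes with such a window (4.23%). A match describes these letters in this window and shows neither binding nor a cause of the values above.

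Ribosomal protein genes also had higher values. Of 25 ribosomal protein genes 23 lay above 0 (median log2 fold change 0.33, and 0.22 without combination replicate 1). Of these, 7 had an unadjusted p under 0.05, all higher, against 4.99% of all genes in that direction. Placeholder symbols such as Gm plus digits were left out. The 8 remaining genes with the smallest p among higher, non-overlapping values were Rpl18-ps1, Fam166a, Pradc1, Rpl37, Rps13-ps2, Rpl37a, Mrps12 and Rps15a-ps5. Rpl37, a protein of the large ribosomal subunit, had 40.2, 36.3, 33.5 and 45.2 CPM in the combination, against 27.2, 23.9, 25.9 and 23.7 CPM in poly I:C libraries (log2 fold change 0.64 ± 0.12, SE). Rpl18-ps1, Rps13-ps2 and Rps15a-ps5 are pseudogenes that share sequence with ribosomal protein genes, and Rpl37 and Rpl37a have many such copies, so their counts are uncertain.

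Fold changes followed gene length over the whole table. Genes were ranked by summed exonic length and split into classes of 3382 genes. In the shortest class (median 853 bases) the median log2 fold change was 0.15, and in the longest (median 9187 bases) it was -0.14, with 0.10, 0.04 and -0.04 in the classes between. The 857 genes with higher values at an unadjusted p under 0.05 had a median exonic length of 1845 bases, against 6313 bases for the 649 genes with lower values. For the genes called by DESeq2 it was 1126 bases for the 75 higher and 7119 bases for the 43 lower genes. The median log2 of CPM plus 1 in the shortest class, minus that in the longest class, was taken for each library. It was -2.27, -2.59, -2.72 and -2.24 in combination replicates 1 to 4 and -2.66, -2.80, -2.63 and -2.77 in poly I:C replicates 1 to 4. Combination replicates 1 and 4 thus stood apart. A fit of single genes with the length trend of each library removed had 1180 of 16910 genes (6.98%) at an unadjusted p under 0.05. By edgeR 0 genes were called in that fit. The cause of the trend was not tested.

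With the length trend of each library removed, the medians were 0.19 for complex I (10 of 36 genes at an unadjusted p under 0.05, all higher, where 6.98% of all genes were in either direction), 0.19 for complexes II to V and 0.27 for ribosomal proteins, against 0.03 over all genes. Without the 3 libraries with Igkc above 1000 CPM, which include both combination libraries that stood apart, they were 0.12, 0.10 and 0.06, against -0.0039 over all genes. In that fit 5 of 36 complex I genes, 4 of 40 genes of complexes II to V and 1 of 25 ribosomal protein genes had an unadjusted p under 0.05, all higher, where 11.7% of all genes had one in either direction. Macrophage markers, with a median exonic length of 2919 bases, had a median log2 fold change of -0.47 with the trend removed. The genes encoded in mitochondrial DNA, which are not part of the nuclear lists, summed to 18520, 22950, 27480 and 6096 CPM in the combination and 14090, 40830, 15850 and 15010 CPM in poly I:C libraries, with combination replicate 4 lowest and poly I:C replicate 2 highest.

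**Figure D3:**
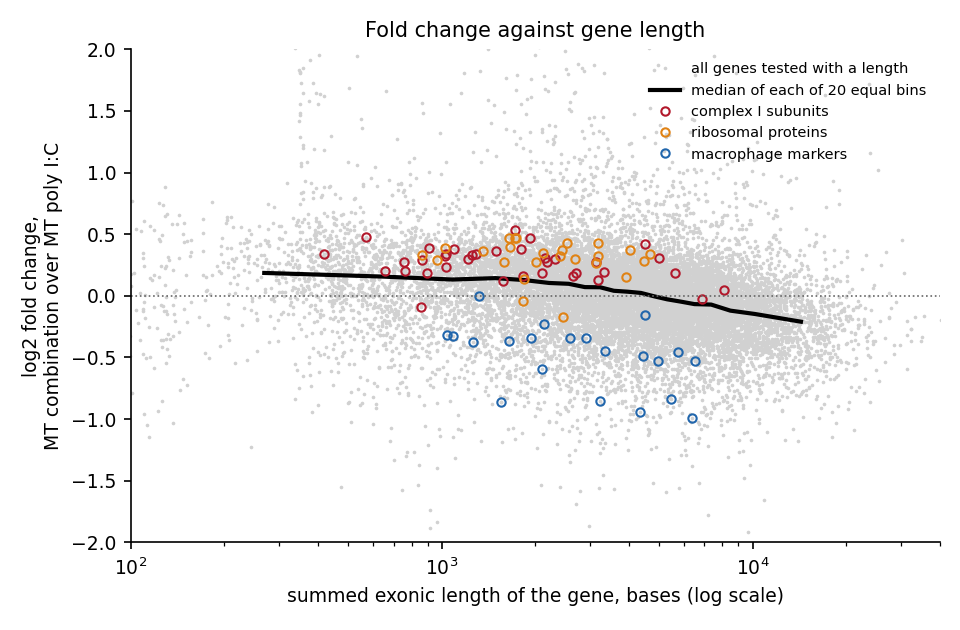
Log2 fold change of the MT combination over MT poly I:C for each gene against its summed exonic length in bases (log scale); the black line joins the medians of 20 equal bins of genes, and circles mark complex I, ribosomal protein and macrophage genes. The line declines with length, complex I and ribosomal protein genes lie mostly above 0 and macrophage markers lie below 0 at short and long lengths alike; genes beyond 2 log2 units are not drawn.

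Inhibition of complex I is known to shift cells towards glycolysis and to engage stress pathways, and those lists held no called gene. Of 22 glycolysis and lactate genes 7 lay above 0 (median log2 fold change -0.11, and 0.07 without combination replicate 1), and of 20 hypoxia-responsive genes 0 did (median -0.28, and -0.09 without combination replicate 1). Eno2, a neuronal and hypoxia-induced enolase, had 6.61, 12.9, 14.99 and 10.4 CPM in the combination and 22.3, 19.5, 12.1 and 18.4 CPM in poly I:C libraries (log2 fold change -0.67 ± 0.29, SE). Gapdh, a glycolytic dehydrogenase with many near-identical pseudogenes, was counted at only 4.23 to 6.38 CPM in the combination and 5.42 to 10.5 CPM in poly I:C libraries, so its counts are uncertain. Adm, the vasodilator adrenomedullin, had 5.08, 12.8, 10.2 and 12.9 CPM in the combination and 22.9, 17.6, 10.5 and 13.9 CPM in poly I:C libraries. Kdm3a, a histone demethylase induced by hypoxia, had 61.8, 106, 115 and 71.4 CPM in the combination and 139, 123, 89.3 and 134 CPM in poly I:C libraries. In Eno2, Adm and Kdm3a combination replicate 1 was the lowest of the 8 libraries. The glycolysis median changed sign in 4 of 22 alternatives.

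The integrated stress response, through which ATF4 induces amino acid transport and synthesis, had 8 of 21 genes above 0 (median log2 fold change -0.15). The sign of that median was not stable, at 0.03 without combination replicate 1, 0.08 without poly I:C replicate 1 and 0.09 with limma voom. Slc7a11, the cystine importer, had 17.0, 18.2, 14.3 and 25.3 CPM in the combination and 23.2, 35.6, 37.4 and 20.9 CPM in poly I:C libraries (log2 fold change -0.62 ± 0.24, SE). Slc7a1, an importer of cationic amino acids, had 71.6, 97.5, 88.4 and 69.7 CPM in the combination and 115, 99.7, 85.4 and 101 CPM in poly I:C libraries. Both genes overlapped between the groups, and the interval of the difference for Slc7a11 was -1.17 to -0.07.

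Cholesterol synthesis genes had a median log2 fold change of 0.06, with 15 of 23 above 0, and oxidative stress genes one of -0.0038, with 10 of 20 above 0. Without combination replicate 1 these medians were 0.17 and 0.12. Mvd, a decarboxylase of the mevalonate pathway, had 15.2, 15.4, 15.3 and 15.5 CPM in the combination and 12.7, 10.1, 14.0 and 15.1 CPM in poly I:C libraries, without overlap. Insig1, the sterol sensor that restrains that pathway, had 48.8, 34.5, 44.1 and 44.3 CPM in the combination and 29.2, 40.6, 38.5 and 38.8 CPM in poly I:C libraries. Sod1, the cytosolic superoxide dismutase, had 170, 143, 126 and 176 CPM in the combination and 125, 111, 124 and 118 CPM in poly I:C libraries, without overlap (log2 fold change 0.39 ± 0.12, SE). Gpx4, which reduces lipid peroxides, had 58.5, 59.6, 53.9 and 72.0 CPM in the combination and 53.4, 48.1, 43.7 and 49.5 CPM in poly I:C libraries, also without overlap (log2 fold change 0.34 ± 0.12, SE). None of these 4 genes was called by edgeR or DESeq2.

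Matrix, complement and red cell genes had lower values in the combination. Of each list 5 members were lower at an unadjusted p under 0.05, where 649 of all genes (3.78%) were. Of 25 fibroblast and matrix genes 2 lay above 0 (median log2 fold change -0.52), and 5 had an unadjusted p under 0.05, all lower. Col6a3, a chain of collagen VI, had 41.8, 43.4, 39.5 and 51.5 CPM in the combination, against 74.0, 97.1, 55.5 and 79.6 CPM in poly I:C libraries, without overlap (log2 fold change -0.78 ± 0.18, SE; adjusted p 0.552 by edgeR, 0.0208 by DESeq2). Itga1, a collagen-binding integrin chain, had 7.50, 10.5, 10.5 and 14.5 CPM in the combination, against 16.1, 27.5, 21.2 and 24.5 CPM in poly I:C libraries (log2 fold change -1.03 ± 0.23, SE). Adamts12, a secreted matrix protease, had 0.953, 1.62, 1.75 and 2.64 CPM in the combination, against 4.86, 8.75, 3.66 and 4.96 CPM in poly I:C libraries (log2 fold change -1.66 ± 0.37, SE). These 3 are long genes, with exonic lengths of 11963 bases for Col6a3, 18599 for Itga1 and 10921 for Adamts12. The part of the length trend in their values was not tested. The remaining genes of the 8 that the naming rule took among lower, non-overlapping values were Prune2, Filip1 and Asah2, with log2 fold changes of -0.92, -0.68 and -0.68.

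The fibroblast median was -0.41 without combination replicate 1, -0.68 without the 3 libraries with Igkc above 1000 CPM and -0.47 with the length trend removed. In the fit with the trend removed 3 of 25 fibroblast and matrix genes were lower at an unadjusted p under 0.05. In that fit 515 of 16910 genes were lower at that threshold. Among complement components 1 of 15 lay above 0 (median -0.35, and -0.40 without combination replicate 1), and 5 had an unadjusted p under 0.05, all lower. The summed level of all 16 listed genes overlapped, at 1738, 1811, 1898 and 2847 CPM in the combination and 2278, 3299, 2878 and 2632 CPM in poly I:C libraries.

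Of the 6 erythroid genes tested 0 lay above 0 and 5 had an unadjusted p under 0.05, all lower, with a median log2 fold change of -1.32. Hba-a1, an alpha globin chain, had 264, 126, 130 and 181 CPM in the combination and 260, 752, 253 and 446 CPM in poly I:C libraries. Alas2, the first enzyme of haem synthesis in erythroid cells, had 6.55, 3.44, 4.27 and 3.83 CPM in the combination, against 7.09, 26.8, 7.31 and 12.7 CPM in poly I:C libraries, with no overlap. Poly I:C replicates 2 and 4 had the highest values of both genes, and poly I:C replicate 2 was also the highest library for Mertk, Tlr8, Csf1r and Havcr2. The part of red cell RNA in the other values was not tested. Without combination replicate 1 the erythroid median was -1.75, and it ranged from -2.10 to -0.79 over all alternatives. Hba-a1 and Alas2 were chosen after their values were seen.

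**Figure D4:**
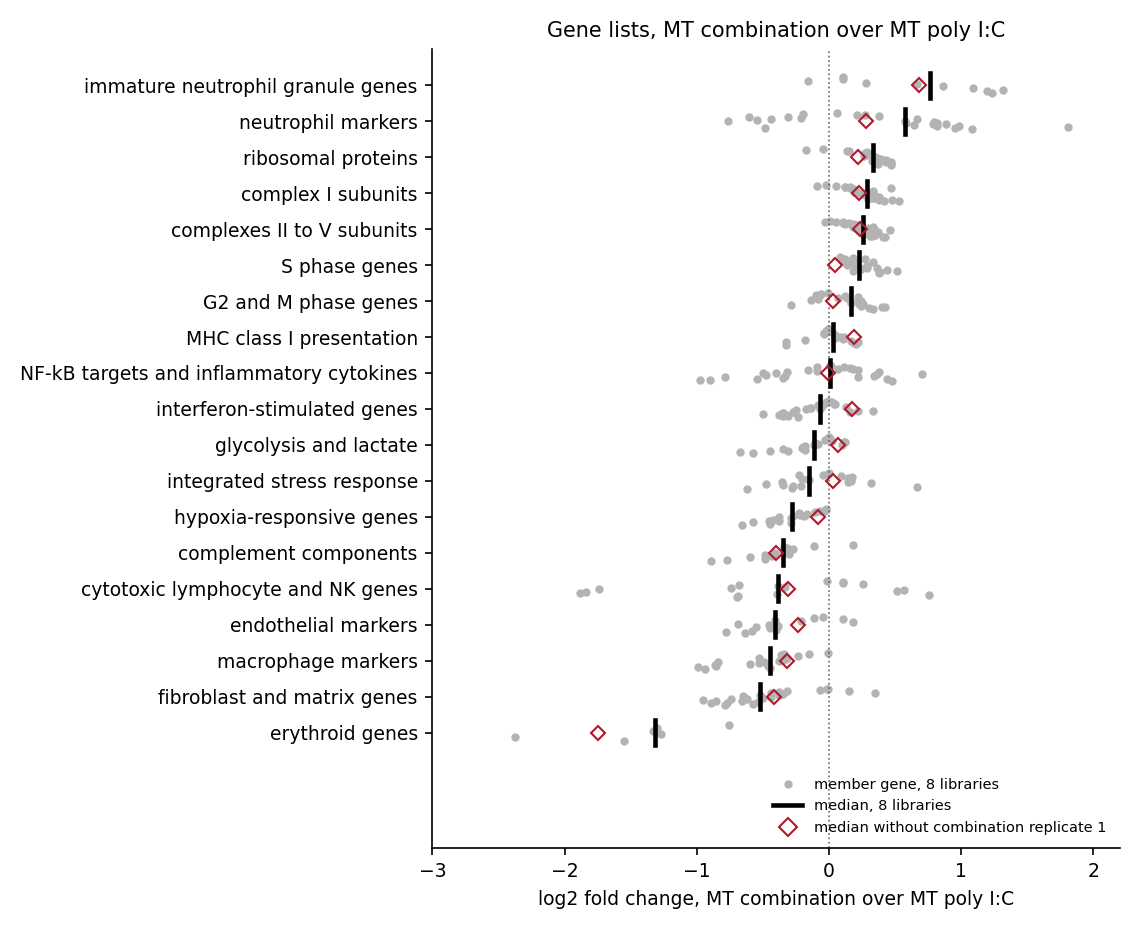
Log2 fold change of the MT combination over MT poly I:C for 19 gene lists; grey points are member genes and black bars the list medians in the 8 libraries, and open diamonds are the medians without combination replicate 1. Macrophage, fibroblast and erythroid medians stayed below 0 and those of immature granule and respiratory chain genes above 0 without that library, while the median of interferon-stimulated genes was -0.07 with it and 0.17 without it.

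Cell cycle genes depended on a single library. All 22 S phase genes lay above 0 with a median log2 fold change of 0.23, which was 0.04 without combination replicate 1. The 22 G2 and M phase genes had medians of 0.17 with all libraries and 0.03 without it. No gene of either list was called by edgeR.

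The same contrast in the 4T1 model, 4 combination against 4 poly I:C libraries, allows a test of whether the response differs between models. The difference of the 2 log2 fold changes, MT minus 4T1, was tested over the 16 libraries for 18080 genes. By edgeR's quasi-likelihood test 1 gene was called (0.00553%), against 109 (0.603%) by DESeq2 and 403 (2.23%) by limma voom, and 1771 genes (9.8%) had an unadjusted p under 0.05.

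The gene called was Dio2, the deiodinase that converts thyroxine to active thyroid hormone (ENSMUSG00000007682, GRCm38 chromosome 12, 90724552 to 90738438, minus strand). In MT tumours it had 1.78, 4.60, 5.12 and 3.64 CPM in the combination and 8.21, 7.18, 4.48 and 5.38 CPM in poly I:C libraries. In 4T1 tumours it had 48.1, 43.3, 65.2 and 74.7 CPM in the combination, against 5.24, 6.21, 7.33 and 12.7 CPM in poly I:C libraries. The MT groups overlapped and the 4T1 groups did not. The log2 fold changes were -0.72 ± 0.34 in MT and 2.89 ± 0.29 in 4T1 tumours (SE), and their difference was -3.62 ± 0.48 (SE), with an adjusted p of 0.0388 by edgeR. The call held when MT combination replicate 1, MT poly I:C replicate 3 or 4T1 poly I:C replicate 4 was left out. It was lost when any of the other 13 libraries was, with adjusted p-values of 0.0571 to 0.194 by edgeR. Over all 16 libraries left out in turn, the difference ran from -3.96 to -3.39. The call was also lost without the 3 MT libraries with Igkc above 1000 CPM (adjusted p 0.145 by edgeR).

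Mertk was among the 4 next genes under the naming rule, with Galnt15, Hbp1 and Cyth3. None of the 4 was called by edgeR with all 16 libraries, and all 4 were called by DESeq2 and by limma voom. Without 4T1 poly I:C replicate 4, edgeR called Galnt15 and Cyth3. In 4T1 tumours Mertk had 24.3, 31.5, 44.6 and 39.97 CPM in the combination and 22.2, 14.7, 27.6 and 17.8 CPM in poly I:C libraries, a log2 fold change of 0.78 ± 0.23 (SE). Its difference between models was -1.74 ± 0.31 (SE), with an adjusted p of 0.146 by edgeR's quasi-likelihood test. Galnt15, an enzyme that starts O-linked glycosylation, differed by -2.87 ± 0.50 (SE), at 7.37, 9.79, 10.7 and 9.32 CPM in the MT combination, 11.4, 24.8, 14.0 and 13.8 CPM in MT poly I:C, 63.5, 79.6, 79.8 and 83.3 CPM in the 4T1 combination and 9.96, 12.1, 13.1 and 36.3 CPM in 4T1 poly I:C libraries. In all 5 genes the fold change was below 0 in MT and above 0 in 4T1 tumours.

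The medians of several lists lay on opposite sides of 0 in the models, a difference that was not tested for lists. Macrophage markers had a median log2 fold change of -0.45 in MT and 0.56 in 4T1 tumours, where 20 of 21 members lay above 0, as did 48.7% of all genes tested there. Neutrophil markers had medians of 0.57 in MT and -1.48 in 4T1 tumours, and erythroid genes -1.32 in MT and 0.44 in 4T1 tumours. Lymphoid lists also differed in sign. T cell markers had medians of 0.59 in MT and -1.39 in 4T1 tumours, where 19 of 20 members lay below 0. B and plasma cell markers had medians of 2.02 in MT and -2.996 in 4T1 tumours. Without MT combination replicate 1 these MT medians were 0.01 and 0.06. The part of lymphoid RNA in the other medians was not tested. Fibroblast and matrix genes lay below 0 in both, at -0.52 in MT and -0.97 in 4T1 tumours. In the 4T1 fit alone, 0 of 16448 genes were called by edgeR and 2757 (16.8%) had an unadjusted p under 0.05.

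**Figure D5:**
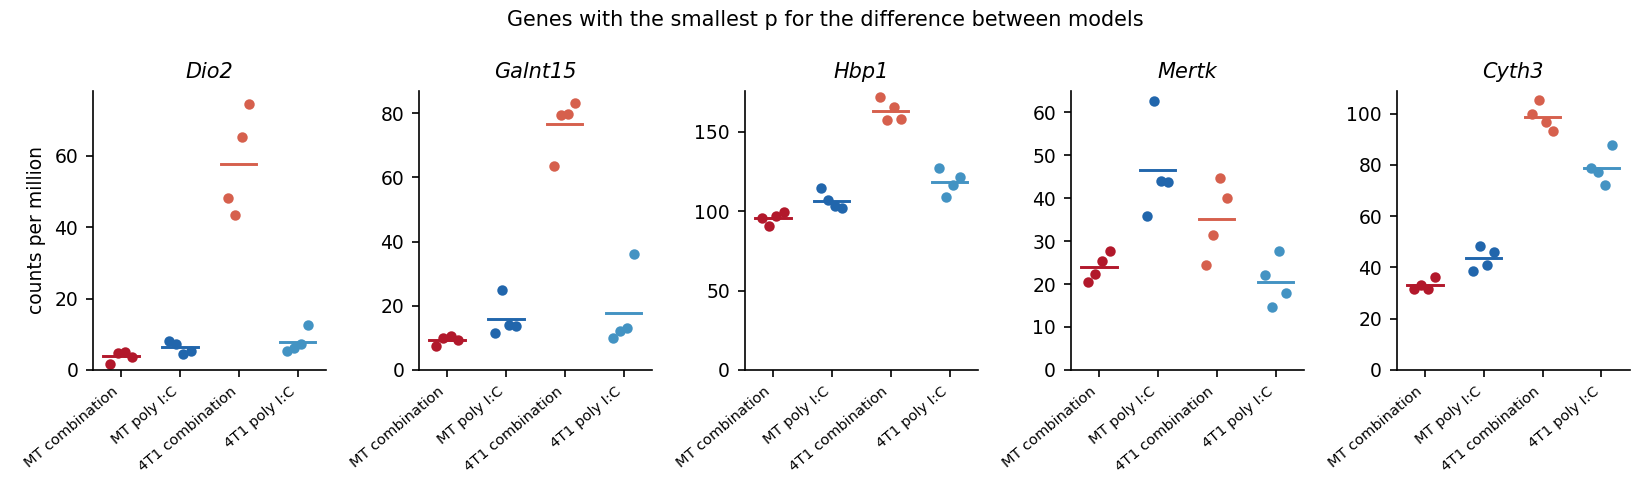
CPM of the 5 genes with the smallest p for the difference between models, among those the naming rule admits. Points are libraries and lines group means, for MT combination, MT poly I:C, 4T1 combination and 4T1 poly I:C (n = 4 each). Dio2 lay between 43.3 and 74.7 CPM in the 4T1 combination and at or below 12.7 CPM in the other groups.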

How the data were processed

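Bulk RNA-seq of 8 MT tumour libraries, and of 8 4T1 libraries for the difference between models, was used. Per the submitters' processing notes, reads were trimmed with Trimmomatic 0.32.48, aligned with STAR 2.3.0 to mm10 (GRCm38) and counted with featureCounts 1.4.4. The authors deposited raw counts: whole numbers of reads for each gene, with no normalisation. The annotation release and the strand setting of the counting are not given in the sources used here, so overlapping and antisense genes cannot be told apart. Libraries were strand-specific and poly(A)-selected, per the labels' protocols, from RNeasy RNA of cell pellets or frozen tissue. The table holds 39017 genes, of which 37693 have GRCm38 annotation.

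Counts were tested with edgeR 4.0.16 (quasi-likelihood F-test, TMM factors, filterByExpr with minimum count 10 and total 15) in R 4.3.3, in a fit of the 8 MT libraries and, for the difference between models, of 16 libraries. Genes were called at 0.05 after Benjamini-Hochberg adjustment. CPM are counts over the library total. Intervals are 95% intervals of the fit, and depth limits genes near the count minimum. The test code was tested on simulated data.

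The comparison, the 50 gene lists (920 of 922 entries found) and the naming rule were chosen with earlier results of these data known. The rule takes 8 genes in each direction with the smallest p among non-overlapping genes with average log2 CPM of at least 1. It adds 2 members of each of 10 lists, and 5 genes for the difference between models. For the 8 and the 5, placeholder symbols, such as Gm plus digits or an ending in Rik, were left out. Variable segments of immunoglobulins and T cell receptors were left out there too. Alternatives were DESeq2 1.42.0, limma voom 3.58.1, other scalings and filters, wider fits, a replicate block and leaving out each library. Removing the length trend, leaving out libraries with Igkc above 1000 CPM and log2 Igkc as a covariate were chosen after seeing the data.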

Additional observations from a re-analysis of the deposited data

Results flagged for a closer look

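In 260 groups of 4 libraries, 1 library stood far from the other 3 in 18. The groups share libraries, and some genes were picked after their values were seen. The rate that chance alone would give was not computed. Poly I:C replicate 3 was such a library for the lymphoid genes Igkc (2805 CPM), Ms4a1 (153 CPM), Cr2 (72.4 CPM) and Glycam1 (440 CPM) and for the summed B and plasma cell markers (8759 CPM). Poly I:C replicate 2 was high in Slc4a1, the erythroid anion exchanger (15.6 CPM), and the summed adipocyte (2463 CPM), lysosomal (9834 CPM) and mitochondrially encoded genes (40830 CPM). Combination replicate 1 was high in Ms4a1 (594 CPM) and low in Mrps12 (21.0 CPM), the summed MHC class I genes (10510 CPM) and the summed matrix metalloproteases and inhibitors (502 CPM). Combination replicate 2 was high in Pglyrp1 (24.5 CPM), replicate 3 low in Elane, neutrophil elastase (1.32 CPM), and replicate 4 high in the summed cytotoxic (357 CPM) and complement genes (2847 CPM). In the other model, 4T1 poly I:C replicate 4 was high in Galnt15 (36.3 CPM).

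The effect on Dio2 differed between the models, by -3.62 on the log2 scale, MT minus 4T1, in the test of the difference itself.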

How the results depend on the processing

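In the combination against poly I:C, edgeR called 0 genes in each alternative, with 709 to 2096 genes at an unadjusted p under 0.05 when a single library was left out, and limma voom called 0, whereas DESeq2 called 118. For the difference between models the 1 call became 109 with DESeq2, 403 with limma voom, 0 with all 31 libraries in 1 fit, and 0 without the libraries with Igkc above 1000 CPM. Leaving out a single library gave 0 to 20 calls, with 20 without 4T1 poly I:C replicate 4 and 1 without MT combination replicate 1 or MT poly I:C replicate 3. Galnt15, Hbp1, Mertk and Cyth3, not called for this difference by edgeR with all libraries, were called by DESeq2 and limma voom. The cause was not tested.

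Replicate numbers were not taken to pair the libraries. Deviations of same-numbered MT libraries correlated at -0.63, 0.20, -0.80 and 0.05, and those of differently numbered libraries at -0.76 to 0.78. These values show no pairing by number. They cannot exclude a shared batch, since lymphoid RNA led the variation between the libraries. With a replicate block 0 genes were called in MT, with 808 at an unadjusted p under 0.05, and 0 for the difference between models.

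Among the alternative values of the 36 named genes, 773 kept their direction and side of the threshold, 18 gained a call, all with DESeq2, and 1 changed sign: Herc6, at 0.0126 without MT combination replicate 1 and with the length trend removed. Medians below or above 0 in all 22 alternatives included macrophage, fibroblast, erythroid, complex I and immature granule genes. Depth limits Ly6g and other genes near the count minimum.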

Other observations

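Granzymes of the extended cluster on chromosome 14 were high in a single poly I:C tumour. Gzmf had 4.26, 5.70, 1.57 and 17.9 CPM in the combination libraries and 101, 2.01, 1.89 and 2.15 CPM in the poly I:C libraries. Gzmd had 2.54, 2.92, 1.02 and 10.6 CPM in the combination and 56.7, 1.01, 1.14 and 1.56 CPM in poly I:C libraries, and Gzme 1.46, 1.56, 0.843 and 6.21 CPM in the combination and 31.8, 0.566, 0.441 and 0.419 CPM in poly I:C libraries. Poly I:C replicate 1 was the highest library for all 3 genes and combination replicate 4 the next. The 95% interval of the Gzmf log2 fold change, -5.21 to 1.44, covered 0. These genes were chosen after their values were seen.

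Clock genes had lower values in the combination in 14 of 16 cases (median log2 fold change -0.29), and -0.18 without combination replicate 1. Per2, a repressor of the circadian clock, had 14.9, 17.6, 21.4 and 12.2 CPM in the combination and 27.6, 29.8, 19.3 and 24.8 CPM in poly I:C libraries, and combination replicate 3 overlapped with poly I:C replicate 3. Per2 was chosen after its values were seen and was not called by edgeR or DESeq2.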
